A study of Homo sapiens with 12 samples.

Results

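The genes described here make the SR proteins, the heterogeneous nuclear ribonucleoproteins (hnRNPs) and the kinases that phosphorylate SR proteins. They were chosen by symbol, with earlier results of these data known: every SRSF gene with a number, TRA2A and TRA2B, every HNRNP gene without a hyphen in its symbol, CLK1 to CLK4, SRPK1 and SRPK2. This gave 47 of the 25369 genes in the count table, made up of 14 SR proteins (both TRA2 genes included), 27 hnRNP genes or pseudogenes and 6 kinases. Their mRNA was measured by strand-specific poly(A)+ RNA-seq in 3 established human cancer cell lines: RKO, from a colon carcinoma, A549, from a lung adenocarcinoma, and H460, from a lung large cell carcinoma. Each line was kept in normoxia or placed for 24 h in hypoxia at 1% O2, with 2 independent biological replicates in each of the 6 groups, 12 libraries in all. RKO and A549 were grown in DMEM and H460 in RPMI, all with serum, so that medium and H460 cannot be told apart, and the O2 level of normoxia is not stated in the labels. The question put to these genes was which of them changed in level under hypoxia in each line, and whether the lines responded alike.

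SR proteins bind exonic enhancers through RNA recognition motifs and recruit the splicing machinery through a domain rich in arginine and serine. Phosphorylation of that domain controls where they are and what they bind: SRPK1 and SRPK2 act mainly in the cytoplasm and promote their entry into the nucleus, and the CLK kinases act in the nucleus and release them from speckles. The hnRNPs coat nascent transcripts, often repress the exons they bind, and also take part in mRNA export, translation and decay. Many genes of both families control their own level through exons that send the mRNA to decay, and CLK1 transcripts can keep introns and stay in the nucleus. A count per gene takes up the reads of all these isoforms together.

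Promoter sequence is shown for CLK1, CLK2 and CLK3, the kinases that rose most in H460, and for HNRNPAB, the member that fell most there. The windows come from RefSeq (GRCh38.p14), which is a later build than the GRCh37 of the counts, and each line runs 5′ to 3′ on the gene's own strand over the 200 bases from 250 to 51 before the start of transcription. Capitals mark ACGTG or GCGTG, the core letters that hypoxia-inducible factors are known to bind, or their reverse complements CACGT and CACGC. RefSeq gives a pair of starts for CLK1 and for CLK3. Both windows of CLK3 are shown, but of CLK1 only the first. The second CLK1 window (chr2:200864512-200864811 in full length, with 2 matches) overlaps the first. CLK1 lies at chr2:200864709-200864908, minus strand, CLK2 at chr1:155273555-155273754, minus strand, the first CLK3 window at chr15:74608122-74608321, plus strand, the second at chr15:74615586-74615785, plus strand, and HNRNPAB at chr5:178204283-178204482, plus strand.
CLK1: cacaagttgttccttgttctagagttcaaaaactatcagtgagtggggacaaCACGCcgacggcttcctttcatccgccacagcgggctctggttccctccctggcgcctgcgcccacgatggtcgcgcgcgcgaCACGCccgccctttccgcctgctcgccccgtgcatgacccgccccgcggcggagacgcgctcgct
CLK2: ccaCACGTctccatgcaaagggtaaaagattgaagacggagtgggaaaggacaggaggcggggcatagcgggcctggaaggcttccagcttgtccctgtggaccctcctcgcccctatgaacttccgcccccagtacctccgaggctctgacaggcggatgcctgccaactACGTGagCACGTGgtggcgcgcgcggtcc
CLK3, first start: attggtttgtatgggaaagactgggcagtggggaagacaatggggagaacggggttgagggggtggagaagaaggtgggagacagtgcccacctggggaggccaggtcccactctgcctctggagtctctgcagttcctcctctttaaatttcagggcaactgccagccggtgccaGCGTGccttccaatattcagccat
CLK3, second start: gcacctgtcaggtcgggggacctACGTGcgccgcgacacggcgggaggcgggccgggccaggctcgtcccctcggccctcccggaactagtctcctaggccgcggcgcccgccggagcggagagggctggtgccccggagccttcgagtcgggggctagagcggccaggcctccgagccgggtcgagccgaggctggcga
HNRNPAB: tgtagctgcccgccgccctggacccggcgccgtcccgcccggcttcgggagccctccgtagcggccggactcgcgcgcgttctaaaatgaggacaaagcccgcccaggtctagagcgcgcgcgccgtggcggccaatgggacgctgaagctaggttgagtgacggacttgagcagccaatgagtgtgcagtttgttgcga

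These stretches held 2 matches upstream of CLK1, 4 upstream of CLK2, 1 upstream of each CLK3 start and 0 upstream of HNRNPAB. Of the CLK2 matches, 2 are the same CACGTG read on both strands. RefSeq windows of 300 bases (250 before to 50 after the start) were found for 40 of the 47 members, 59 windows in all. The search for ACGTG or GCGTG on either strand found 46 of these 59 windows (78%) with a match, beside 48.4% of the windows of all genes and 54.7% of the windows of protein-coding genes. CACGTG, which contains ACGTG, was in 10 of the 59 (16.9%), beside 7.26% of all windows and 8.34% of protein-coding ones. A match shows only that the letters are there. The genes printed were picked by their response. Among members lower in both RKO and H460, full windows held 3 matches for HNRNPM and 2 each for HNRNPR and TRA2B. They held 1 per window for SRSF3 and SRSF7 and 0 for HNRNPA2B1 and HNRNPAB. Of other members that rose in H460, HNRNPLL had 0, HNRNPUL2 and SRSF5 1 each, SRSF4 3 and SRPK2 0 to 2 per window. Whether matches go with the direction of response was not tested. No window was given for HNRNPA1, HNRNPA1P10, HNRNPA1P33, HNRNPA3P1, HNRNPKP3, SRSF2 and TRA2A.

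Summed counts ran from 27350424 to 41757584 per library. Counting error alone did not cover the spread of replicates in any group, with a biological coefficient of variation of 15.0% for RKO, 18.9% for A549 and 7.91% for H460. CPM values are counts scaled by the library's summed count and by its TMM factor over all 12 libraries. The hypoxia replicate 1 of A549 moved less than replicate 2. NDRG1, a classical hypoxia target, had 39.3 and 51.6 CPM in the A549 normoxia libraries and 675 and 1761 CPM in hypoxia replicates 1 and 2. Of 6 classical hypoxia markers (CA9, NDRG1, VEGFA, SLC2A1, PDK1 and ADM), 6 rose in RKO, 5 in A549 and 6 in H460. The labelled tissues were only partly visible in marker genes. CDX2 was the single colon marker of 6 above the filter in RKO (15.1 and 15.5 CPM in normoxia), with VIL1 and CDX1 at 0 counts in its 4 libraries. A549, a lung line, had 2 of the 6 above the filter, CDH17 (2.50 and 2.23 CPM in normoxia) and LGALS4 (0.881 and 0.908 CPM). Of 4 epithelial markers, CDH1 was near 0 in RKO and H460 and EPCAM in H460. KRT18 was at 183 and 172 CPM in normoxic RKO and 507 and 508 CPM in normoxic H460. KRT8 was at 8.26 and 8.08 CPM in normoxic RKO and 778 and 710 CPM in normoxic H460. Of 5 lung markers, A549 had KRT7 (2552 and 3278 CPM) and low NAPSA above the filter, and H460 had 3, of which NKX2-1 rose from 0.0709 and 0 to 3.67 and 3.41 CPM. Of 7 markers of leukocytes, endothelium and fibroblasts, CD3E was at 0 counts in every library, and PTPRC, PECAM1, CDH5 and COL1A2 stayed under 0.5 CPM. PDGFRB was above the filter in H460 alone, where its groups overlapped. COL1A1, which carcinoma lines can also make, rose from 47.0 and 83.3 to 129.6 and 429 CPM in A549 and from 0.345 and 0.452 to 1.73 and 2.00 CPM in RKO, and its part in the results below was not tested. In bulk RNA, fewer cells of a kind and less RNA per cell cannot be told apart.

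The members took 1.36% and 1.39% of all counted reads in normoxic RKO and 0.861% and 0.935% in hypoxic RKO. In H460 the share went from 1.30% and 1.42% to 0.956% and 0.980%. In A549 it was 1.11% and 1.05% in normoxia and 1.06% and 0.845% in hypoxia, so that the A549 groups overlapped and those of the other lines did not. These shares rest on library totals without TMM scaling. In H460, leaving that scaling out moved the median of all genes by -0.35 on the log2 scale. With TMM scaling the members had a median log2 fold change of -0.05 there, so the H460 shares do not measure the change of these mRNAs alone.

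Among the members, hnRNPs were the most abundant per length. On the deposited RPKM scale (the count divided by gene length and by the library's summed count), HNRNPA2B1, which binds exons and also guides mRNA transport, led in normoxia in all 3 lines with 503 ± 0.797 in RKO, 418 ± 18.2 in A549 and 562 ± 40.6 in H460 (mean ± SD, n = 2). HNRNPH1 and HNRNPK, which bind runs of G and of C, were at rank 2 or 3 in each normoxic line. Reads from bases that HNRNPA1 shares with the pseudogene HNRNPA1P10 cannot be assigned by position. The RPKM of HNRNPA1 may thus be too low, and its place in this order is uncertain. The CLK kinases were in the lower part of the range, at ranks 22 to 38 of 47 in normoxia, with a CLK4 level of 8.91 ± 1.91, 8.97 ± 0.0153 and 10.4 ± 1.77 RPKM in RKO, A549 and H460. In H460 CLK1 went from rank 28 (43.3 ± 3.13 RPKM) to rank 6 (163 ± 17.5 RPKM) and CLK2 from rank 22 (85.0 ± 12.5 RPKM) to rank 8 (138 ± 2.07 RPKM). HNRNPAB went the other way there, from rank 8 (159 ± 1.74 RPKM) to rank 30 (20.7 ± 1.70 RPKM).

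**Figure D1:**
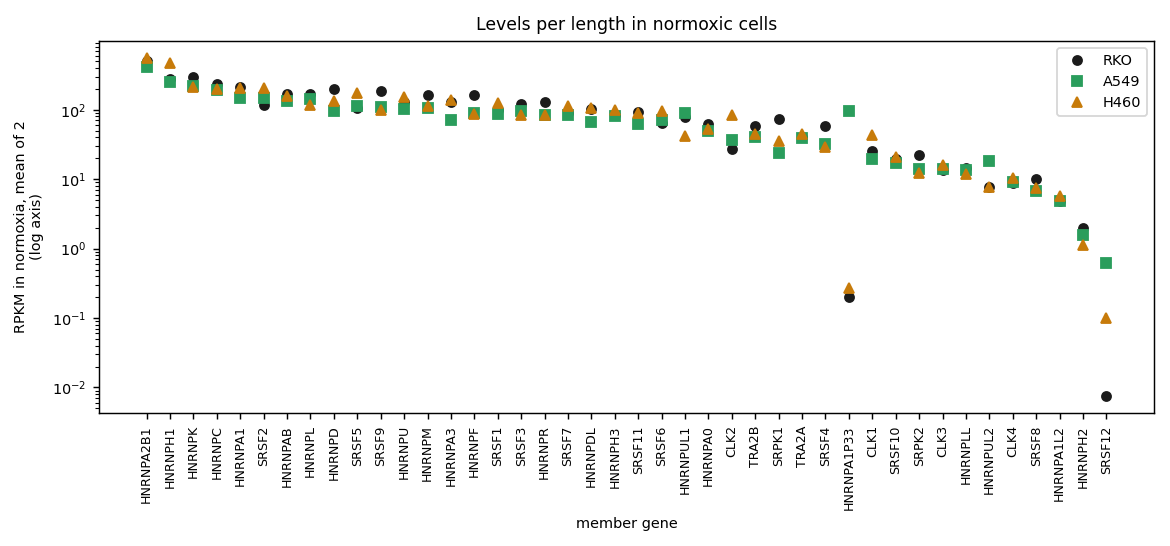
Mean RPKM of 2 normoxia libraries (y axis, logarithmic) for each member (x axis) with a mean of at least 0.5 in 1 line, ordered by the sum over lines, with RKO as black circles, A549 as green squares and H460 as orange triangles. HNRNPA2B1 had the highest RPKM in all 3 lines, though that of HNRNPA1 may be too low. HNRNPA1P33 and SRSF12 stood far higher in A549 than in RKO or H460.

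A set of 5 hnRNP rows was too low to test in any line: HNRNPA1P10, HNRNPCL1 and HNRNPKP3 had 0 counts in all 12 libraries, HNRNPA3P1 and HNRNPCL2 at most 2 counts in a library. A count of 0 allows up to 3 counts, or 0.0714 to 0.127 CPM depending on the library, and covers counting error only. HNRNPA1P10 is annotated inside HNRNPA1 on the same strand, so reads from their shared bases cannot be assigned by position, and HNRNPA1 values carry that limit. SRSF12 and the pseudogene HNRNPA1P33 passed the filter in A549 alone, which left 40 members tested in RKO, 42 in A549 and 40 in H460. HNRNPA1P33 had 48.9 and 49.4 CPM in normoxic A549 and at most 0.176 CPM in RKO and H460, and its likeness to HNRNPA1 makes the value uncertain.

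Between the normoxic lines, 12 of 42 members differed between RKO and A549 (60.2% of all 15595 genes tested did), 15 of 42 between RKO and H460 (61.9% of all genes) and 12 of 42 between A549 and H460 (52.1% of all genes). Calls here and below needed an adjusted p under 0.1 and a fold change over 1.5. SRPK1 was higher in RKO than in A549 by 1.62 ± 0.14 (adjusted p = 1.09e-07) and than in H460 by 0.99 ± 0.14 (adjusted p = 1.53e-05) on the log2 scale, with 313 and 290.3 CPM in RKO, 106 and 90.1 CPM in A549 and 150.4 and 153 CPM in H460. CLK1 and CLK2 had their highest normoxic level in H460. The log2 difference of CLK2 was -1.67 ± 0.16 (adjusted p = 2.78e-07) for RKO against H460 and -1.25 ± 0.15 (adjusted p = 8.40e-06) for A549 against H460. No such difference passed for CLK3 and CLK4, the largest being -0.27 ± 0.24 (adjusted p = 0.327) for CLK3 in RKO against H460.

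Under hypoxia, 3 members rose and 19 fell in RKO, 0 rose and 0 fell in A549, and 8 rose and 10 fell in H460. Over all genes tested, 18.8% rose and 15.1% fell in RKO, 2.22% rose and 0.456% fell in A549, and 24.6% rose and 27.3% fell in H460. The members called in RKO were thus mostly lower, while the direction in RKO over all genes was more even. The members had a median log2 fold change of -0.58 in RKO, -0.07 in A549 and -0.05 in H460, beside 0.01, -0.01 and -0.04 for all genes tested. Both hypoxia libraries lay above both normoxia libraries for 5 members in RKO, 3 in A549 and 14 in H460. They lay below for 30, 6 and 19. Over all 12817, 14251 and 14080 genes tested, this held for 4991, 3712 and 5974 above and 4047, 3399 and 6185 below. In A549 such separation was less frequent among the members than over all genes. In A549 the count at an unadjusted p under 0.05 was 0 higher and 3 lower of 42, beside 1389 higher and 974 lower of all 14251 genes. DESeq2 called 0 members in either direction there, beside 610 higher and 258 lower over all genes. Without hypoxia replicate 1, A549 had 1 member higher (CLK1) and 4 lower (HNRNPA1P33, HNRNPAB, SRSF7 and TRA2B) of 42, while the shares over all genes went up to 7.70% higher and 5.34% lower. With the replicate number as a block the A549 count was 0 higher and 1 lower (HNRNPA1L2), beside 8.34% and 5.07% of all genes. Scaling by library size alone moved the median gene in H460 by -0.35 (log2) and gave 3 higher and 14 lower of the 40 members in H460, beside 14.7% and 40.9% of all genes. HNRNPLL, HNRNPUL2, SRPK2, SRSF4 and SRSF5 then passed no longer as higher, and HNRNPD, HNRNPF, HNRNPH3 and SRSF10 were added to the lower group.

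By family, RKO had 0 higher and 8 lower of 13 SR proteins, 0 higher and 11 lower of 21 hnRNPs, and 3 higher and 0 lower of 6 kinases. H460 had 2 higher and 4 lower of 13 SR proteins, 2 higher and 5 lower of 21 hnRNPs, and 4 higher and 1 lower of 6 kinases. Over all genes tested, 18.8% rose and 15.1% fell in RKO, and 24.6% rose and 27.3% fell in H460. The hnRNP counts in H460 were above these shares in neither direction. The median log2 fold changes in RKO, A549 and H460 were -0.88, -0.21 and -0.01 for SR proteins, -0.61, -0.02 and -0.14 for hnRNPs, and 0.40, 0.10 and 0.84 for kinases. RKO and H460 had 2 members higher in both (CLK1 and CLK3) and 8 lower in both (SRSF2, SRSF3, SRSF7, TRA2B, HNRNPA2B1, HNRNPAB, HNRNPM and HNRNPR), which were 42.1% of those lower in RKO and 80% of those lower in H460. Over the 12135 genes tested in both lines these shares were 59.2% and 34.5%. There were 0 members called in opposite directions. Shares over all genes were not taken for rises in both lines or for opposite calls, so these counts have no background to be read against.

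**Figure D2:**
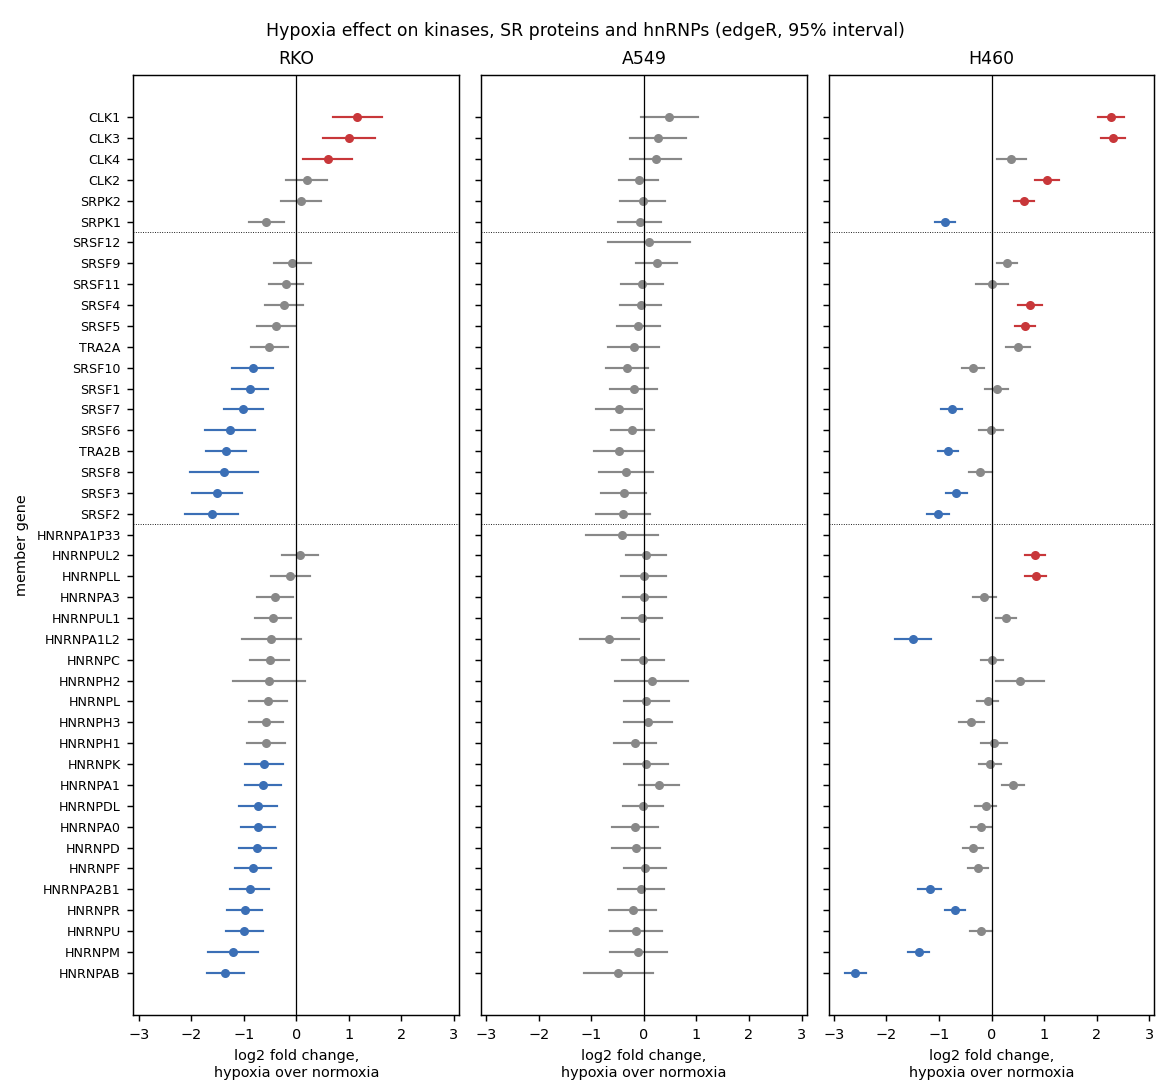
Log2 fold change of hypoxia over normoxia (x axis) with its 95% interval from edgeR for each tested member (y axis, kinases, SR proteins and hnRNPs from top to bottom), in 1 panel per line, with members called higher in red, called lower in blue and not called in grey. In RKO 34 of 40 points lie below 0 and CLK1, CLK3 and CLK4 are called above it, no A549 point is coloured, and H460 runs from HNRNPAB at -2.59 to CLK3 at 2.31.

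Among the kinases, CLK1 and CLK3 rose in both RKO and H460, and most in H460. CLK1 (chr2:201717732-201729467, minus strand, GRCh37 as for all gene positions here) had 151 and 164 CPM in normoxia and 846 and 689 CPM in hypoxia in the H460 replicates 1 and 2. This was a 4.81-fold rise, or a log2 fold change of 2.27 ± 0.11 (adjusted p = 1.18e-08), given here and below as estimate ± SE from the edgeR fit of the line. In RKO, CLK1 had 83.0 and 98.5 CPM in normoxia and 260.5 and 162 CPM in hypoxia, with a log2 fold change of 1.16 ± 0.21 (adjusted p = 0.00203). In A549 it had 70.2 and 68.8 CPM in normoxia and 72.3 and 124 CPM in hypoxia, with a log2 fold change of 0.48 ± 0.24 (adjusted p = 0.354), where replicate 1 was close to normoxia and replicate 2 was not. The hypoxic libraries lay above the normoxic ones in all 3 lines.

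CLK3 (chr15:74900713-74922542, plus strand) passed no test between the lines in normoxia, and its hypoxic levels lay far apart. In H460 it had 44.7 and 39.1 CPM in normoxia and 228 and 194 CPM in hypoxia, a 4.97-fold rise with a log2 fold change of 2.31 ± 0.11 (adjusted p = 6.95e-09). In RKO the values were 33.5 and 36.2 CPM in normoxia and 92.8 and 54.1 CPM in hypoxia, with a log2 fold change of 1.01 ± 0.22 (adjusted p = 0.00536). Without RKO hypoxia replicate 1 that value was 0.62 (adjusted p = 0.0210). The A549 libraries overlapped, with 42.9 and 31.0 CPM in normoxia and 37.8 and 52.4 CPM in hypoxia and a log2 fold change of 0.27 ± 0.24 (adjusted p = 0.609).

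CLK2 (chr1:155232659-155243281, minus strand) rose in H460, from 158 and 191 to 372 and 361 CPM, with a log2 fold change of 1.06 ± 0.10 (adjusted p = 2.32e-06). It passed in neither of the other lines, with 46.2 and 63.1 CPM in normoxia and 64.5 and 66.4 CPM in hypoxia in RKO (0.20 ± 0.18 on the log2 scale, adjusted p = 0.401) and 72.5 and 74.2 CPM in normoxia and 66.5 and 71.6 CPM in hypoxia in A549 (-0.10 ± 0.17, adjusted p = 0.803). CLK4 (chr5:178029665-178054054, minus strand) was the least abundant of the CLK genes. It rose in RKO from 18.1 and 23.8 to 38.9 and 27.4 CPM, with a log2 fold change of 0.60 ± 0.21 (adjusted p = 0.0462), close to the fold limit. Without hypoxia replicate 1 that value was 0.38 (adjusted p = 0.198) and without normoxia replicate 1 it was 0.42 (adjusted p = 0.287), so this call rested on those libraries. In H460 CLK4 went from 22.2 and 27.8 to 35.4 and 30.4 CPM, below the fold limit at 0.38 ± 0.12 (adjusted p = 0.0171), and in A549 it had 21.4 and 21.1 CPM in normoxia and 21.4 and 28.8 CPM in hypoxia (0.22 ± 0.22, adjusted p = 0.651).

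The SRPK kinases moved in opposite ways in H460. SRPK1 (chr6:35800811-35888957, minus strand) fell there from 150.4 and 153 to 80.3 and 86.4 CPM, with a log2 fold change of -0.88 ± 0.09 (adjusted p = 2.48e-06). In RKO it went from 313 and 290.3 to 213 and 212 CPM without overlap, but at -0.57 ± 0.15 (adjusted p = 0.0126) on the log2 scale it stayed just inside the fold limit. SRPK2 (chr7:104756821-105029377, minus strand) rose in H460 from 48.0 and 47.8 to 75.1 and 73.9 CPM, with a log2 fold change of 0.62 ± 0.09 (adjusted p = 4.33e-05), again near the limit. Without H460 normoxia replicate 2 it was 0.58 (adjusted p = 0.000460) and no longer passed the fold limit. SRPK2 had overlapping groups in RKO (88.9 and 81.7 CPM in normoxia and 109 and 80.8 CPM in hypoxia) and in A549 (50.5 and 57.2 CPM in normoxia and 47.2 and 60.0 CPM in hypoxia), and so did SRPK1 in A549 (106 and 90.1 CPM in normoxia and 102 and 85.5 CPM in hypoxia). The log2 estimates of the last 3 were 0.09 ± 0.17 (adjusted p = 0.710), -0.02 ± 0.19 (adjusted p = 0.966) and -0.08 ± 0.18 (adjusted p = 0.860).

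**Figure D3:**
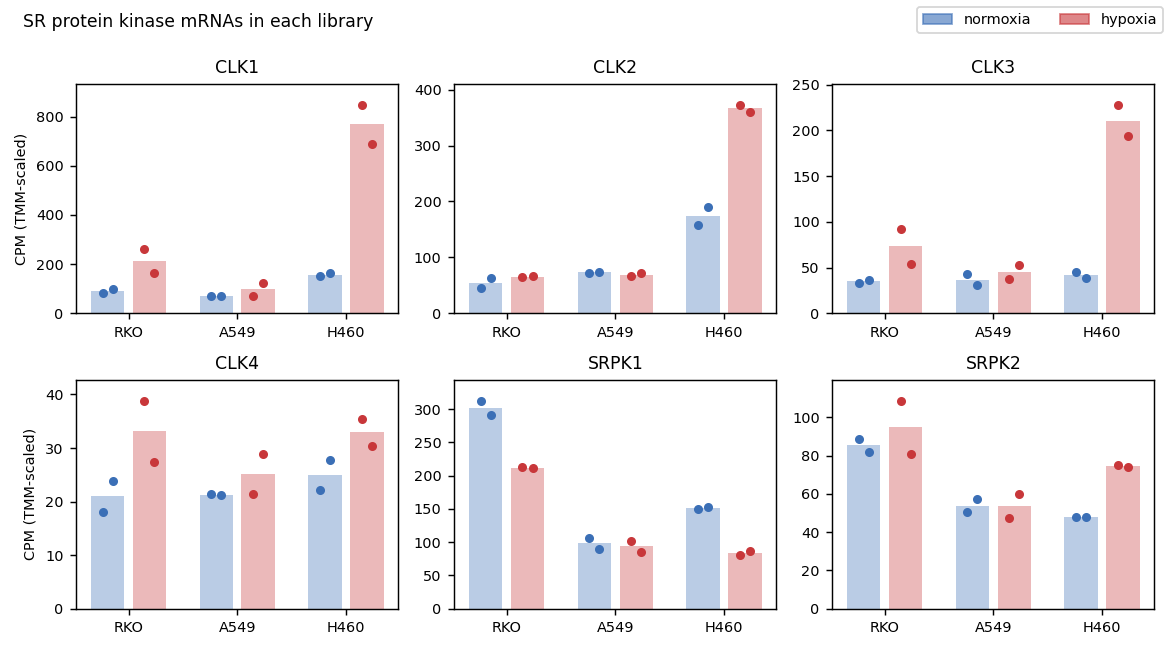
CPM with TMM scaling over the 12 libraries (y axis, from 0) of the 6 kinases, 1 panel per gene, with a point for each library and a bar for the mean of 2, in normoxia (blue) and hypoxia (red) of each line. In H460 the hypoxia points of CLK1 (846 and 689 CPM), CLK2 and CLK3 stand far above normoxia, while those of SRPK1 stand below it.

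Of 13 SR proteins tested, 8 fell in RKO, where 15.1% of all genes fell. In H460 4 fell, a share near the 27.3% of all genes there, and 2 rose. All 13 had RKO estimates below 0, from -1.61 (SRSF2) to -0.08 (SRSF9, at 0.00 with library size scaling). SRSF2 (chr17:74730197-74733493, minus strand), which binds both C-rich and G-rich enhancers, had 309 and 340.2 CPM in normoxia and 82.2 and 139 CPM in hypoxia in RKO, a 3.05-fold fall with a log2 fold change of -1.61 ± 0.23 (adjusted p = 5.52e-04). In H460 it had 551 and 626 CPM in normoxia and 294 and 291 CPM in hypoxia, with -1.02 ± 0.10 (adjusted p = 1.73e-06) on the log2 scale. Neither line had overlapping groups. A549 had 475 and 344 CPM in normoxia and 365 and 264 CPM in hypoxia, which overlapped, at -0.39 ± 0.23 (adjusted p = 0.432).

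SRSF3 (chr6:36562090-36572244, plus strand), a small SR protein that also serves mRNA export, went from 433 and 387 to 115 and 184 CPM in RKO, with a log2 fold change of -1.51 ± 0.22 (adjusted p = 6.04e-04). In H460 it went from 289 and 284 to 175 and 189 CPM, with -0.67 ± 0.09 (adjusted p = 2.98e-05). In A549 both hypoxic libraries were also below the normoxic ones (295 and 359.6 CPM in normoxia and 278 and 227 CPM in hypoxia), but the change did not pass, at -0.39 ± 0.19 (adjusted p = 0.354). Of all 14251 genes tested in A549, 3399 likewise had both hypoxic libraries below the normoxic ones.

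SRSF7 (chr2:38970741-38978636, minus strand), a relative of SRSF3 with a zinc knuckle, had 209 and 205 CPM in normoxia and 93.3 and 121 CPM in hypoxia in RKO (-1.01 ± 0.17 on the log2 scale, adjusted p = 0.00134). In H460 it had 252 and 287 CPM in normoxia and 160.0 and 161 CPM in hypoxia (-0.76 ± 0.09, adjusted p = 1.51e-05). The A549 values of 180.1 and 218 CPM in normoxia and 162 and 128 CPM in hypoxia did not overlap and gave -0.47 ± 0.20 (adjusted p = 0.271).

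TRA2B (chr3:185632358-185655924, minus strand), which binds GAA-rich enhancers, followed the same order of lines. RKO had 239 and 236 CPM in normoxia and 84.8 and 111 CPM in hypoxia, with a log2 fold change of -1.34 ± 0.17 (adjusted p = 3.69e-04), and H460 had 173 and 192 CPM in normoxia and 104 and 103 CPM in hypoxia, with -0.83 ± 0.09 (adjusted p = 4.76e-06). In A549 it had 162 and 162 CPM in normoxia and 139.6 and 95.9 CPM in hypoxia, again without overlap, at -0.47 ± 0.21 (adjusted p = 0.299). Its paralog TRA2A, named after its values were seen, did not pass in any line, with log2 estimates of -0.52 in RKO, -0.19 in A549 and 0.50 in H460.

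SRSF8 (chr11:94800041-94804387, plus strand), a low-level paralog of SRSF2, fell in RKO from 41.8 and 41.2 to 10.5 and 22.9 CPM (-1.37 ± 0.29 on the log2 scale, adjusted p = 0.00463). That value was -0.87 without RKO hypoxia replicate 1 and -2.03 without hypoxia replicate 2, and passed in both cases. It did not pass in H460, with 31.9 and 31.0 CPM in normoxia and 28.1 and 26.8 CPM in hypoxia (-0.21 ± 0.10, adjusted p = 0.0698), or in A549, with 24.8 and 31.2 CPM in normoxia and 25.4 and 19.1 CPM in hypoxia (-0.34 ± 0.23, adjusted p = 0.498). Reads that match both paralogs may have been lost or shared in the counting. The other SR proteins that fell in RKO, named after their values were seen, were SRSF1, the prototype of the family (-0.88), SRSF6 (-1.27) and SRSF10 (-0.83), all as log2 fold changes. None of these 3 passed in H460, where the estimates were 0.10, -0.01 and -0.36. The deposited row of SRSF10 lies on the contig 1_gl000191_random with positions 36273 to 24306953, which makes its length and RPKM uncertain. SRSF4 and SRSF5 rose in H460, SRSF4 from 64.3 and 77.4 to 125 and 112 CPM (0.73 ± 0.10, adjusted p = 5.49e-05) and SRSF5 from 273 and 284 to 444 and 429 CPM (0.63 ± 0.09, adjusted p = 4.47e-05), and they too were named after their values were seen. Their RKO estimates were -0.24 and -0.39. SRSF9 and SRSF11 passed in no line.

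Of the hnRNPs, HNRNPAB fell most in both RKO and H460. HNRNPAB (chr5:177631508-177638184, plus strand), an A/B-type hnRNP that also binds single-stranded DNA, had 278 and 277 CPM in normoxia and 45.0 and 48.0 CPM in hypoxia in H460. This was a 6.03-fold fall with a log2 fold change of -2.59 ± 0.09 (adjusted p = 1.47e-09). In RKO it had 285 and 296 CPM in normoxia and 109.6 and 128 CPM in hypoxia, with -1.35 ± 0.16 (adjusted p = 2.25e-04). The A549 groups overlapped, with 270.1 and 188 CPM in normoxia and 213 and 116 CPM in hypoxia and a log2 fold change of -0.49 ± 0.29 (adjusted p = 0.445).

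HNRNPM (chr19:8509803-8554002, plus strand), which binds GU-rich RNA, went from 285 and 265 to 107 and 105 CPM in H460 (-1.39 ± 0.09 on the log2 scale, adjusted p = 7.21e-08). In RKO it went from 384 and 386 to 132 and 215 CPM (-1.21 ± 0.22, adjusted p = 0.00186). In A549, where hypoxia replicate 1 was at the normoxic level, it had 293 and 222 CPM in normoxia and 291 and 192 CPM in hypoxia (-0.11 ± 0.24, adjusted p = 0.863).

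HNRNPA2B1 (chr7:26229556-26240413, minus strand), the member with the highest deposited RPKM in normoxia, fell in both H460 and RKO. It had 1917 and 2080.2 CPM in normoxia and 881 and 909.9 CPM in hypoxia in H460, with a log2 fold change of -1.17 ± 0.10 (adjusted p = 7.86e-07). In RKO it had 1783 and 1722 CPM in normoxia and 981 and 995 CPM in hypoxia, with -0.89 ± 0.17 (adjusted p = 0.00243). A549 had 1524 and 1411 CPM in normoxia and 1618 and 1236 CPM in hypoxia, with the highest value in hypoxia replicate 1, and -0.05 ± 0.20 (adjusted p = 0.917).

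HNRNPR (chr1:23636276-23670853, minus strand), known for binding neuronal mRNAs, had 340.0 and 326 CPM in normoxia and 185 and 168 CPM in hypoxia in RKO and a log2 fold change of -0.98 ± 0.15 (adjusted p = 8.58e-04). In H460 it had 226 and 216 CPM in normoxia and 141 and 134 CPM in hypoxia, with -0.70 ± 0.09 (adjusted p = 1.52e-05). Its A549 groups overlapped through replicate 1, with 218 and 220.1 CPM in normoxia and 219 and 162 CPM in hypoxia and -0.21 ± 0.20 (adjusted p = 0.627).

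HNRNPA1 (chr12:54674488-54679030, plus strand), the splicing repressor best known as an opponent of SRSF1, had opposite signs in RKO and H460. RKO went from 405 and 356 to 270.3 and 241 CPM, which passed as lower with a log2 fold change of -0.63 ± 0.16 (adjusted p = 0.00960). That call ended in the joint fit of all libraries (-0.57), with library size scaling (-0.55), and without RKO normoxia replicate 1 or hypoxia replicate 2. In H460 the values were higher in hypoxia, 369 and 393 CPM in normoxia and 535 and 487 CPM in hypoxia, below the fold limit at 0.41 ± 0.09 (adjusted p = 0.00193). In A549 they were 281 and 259.9 CPM in normoxia and 329 and 341 CPM in hypoxia, without overlap, at 0.29 ± 0.17 (adjusted p = 0.425). HNRNPA1L2 (chr13:53191605-53217919, plus strand), a near copy of HNRNPA1 at a low level, fell in H460 from 11.9 and 14.2 to 4.60 and 4.73 CPM (-1.50 ± 0.16, adjusted p = 4.30e-06). It did not pass in RKO (10.6 and 11.0 CPM in normoxia and 6.53 and 9.67 CPM in hypoxia, -0.47 ± 0.25, adjusted p = 0.161) or in A549 (9.70 and 11.9 CPM in normoxia and 7.30 and 6.49 CPM in hypoxia, -0.66 ± 0.25, adjusted p = 0.244). With the replicate block its A549 value was -0.65 (adjusted p = 0.0379), which passed. Reads shared with HNRNPA1 make the level of this copy uncertain.

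The other 6 hnRNPs that fell in RKO, named after their values were seen, had log2 fold changes from -0.99 to -0.61: HNRNPU, a nuclear scaffold protein (-0.99), HNRNPF, which binds runs of G (-0.82), HNRNPD and HNRNPDL, which bind AU-rich elements (-0.75 and -0.73), HNRNPA0 (-0.73) and HNRNPK (-0.61). None of the 6 passed in H460, where their estimates ran from -0.36 to -0.03. The RKO call of HNRNPK ended with library size scaling and in the joint fit. HNRNPLL, a relative of HNRNPL, and HNRNPUL2, a relative of HNRNPU, rose in H460, and were also named after their values were seen. HNRNPLL went from 35.4 and 33.4 to 63.2 and 61.6 CPM (0.84 ± 0.09 on the log2 scale, adjusted p = 5.27e-06) and HNRNPUL2 from 38.2 and 39.2 to 70.2 and 68.6 CPM (0.83 ± 0.09, adjusted p = 4.85e-06).

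**Figure D4:**
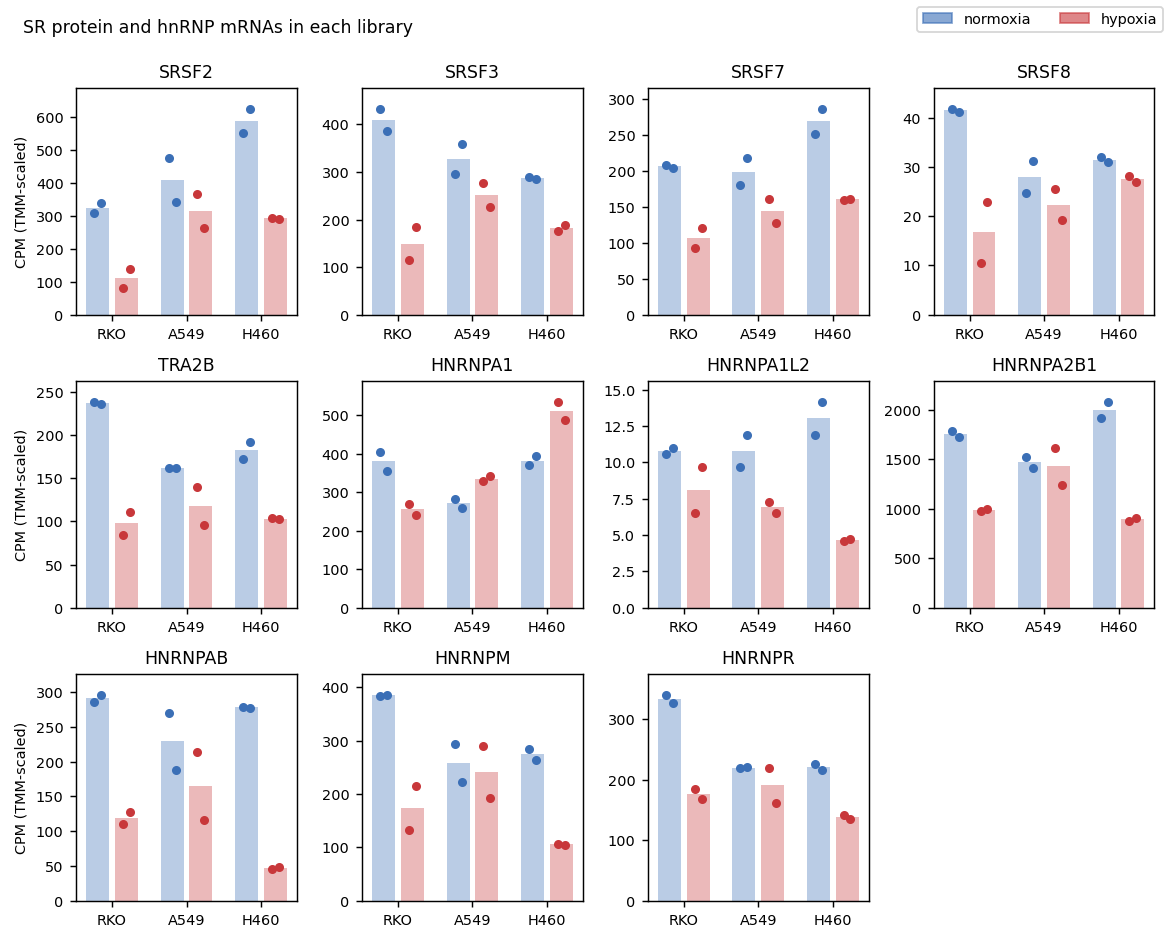
CPM with TMM scaling over the 12 libraries (y axis, from 0) of 5 SR proteins and 6 hnRNPs, 1 panel per gene, with a point for each library and a bar for the mean of 2, in normoxia (blue) and hypoxia (red) of each line. The genes shown were picked by their calls or interaction p, so the number that fall is largely set by that choice. SRSF4, SRSF5, HNRNPLL and HNRNPUL2, which rose in H460, are not shown. The hypoxia points lie below normoxia in RKO in all 11 panels and in H460 in 10, with HNRNPA1 the exception, and in A549 the points of several genes overlap.

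Averaged over the lines, with equal weight for each, 2 of 42 members rose (14.8% of 15595 genes did) and 10 fell (11.5% of all genes). CLK1 rose by 1.33 ± 0.14 (adjusted p = 4.28e-06) and CLK3 by 1.23 ± 0.14 (adjusted p = 6.63e-06) on the log2 scale. The 10 that fell were SRSF2, SRSF3, SRSF7, SRSF8, TRA2B, HNRNPA1L2, HNRNPA2B1, HNRNPAB, HNRNPM and HNRNPR, from -1.45 ± 0.13 (adjusted p = 1.75e-06) for HNRNPAB to -0.60 ± 0.09 (adjusted p = 5.21e-05) for HNRNPR.

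The response differed between lines, by the interaction of line and oxygen at an adjusted p under 0.1, for 30 of 42 members, beside 48.8% of all genes tested. These were 9 of 14 SR proteins, 16 of 22 hnRNPs and 5 of 6 kinases, with CLK4 as the kinase that did not pass (adjusted p = 0.480). The log2 effect in RKO minus that in H460 was -1.06 ± 0.34 (adjusted p = 0.0292) for CLK1 and -1.25 ± 0.33 (adjusted p = 0.0113) for CLK3, both rising more in H460. The 3 smallest interaction p-values among the members belonged to HNRNPAB, CLK3 and HNRNPA1. For HNRNPAB the RKO effect minus the H460 effect was 1.29 ± 0.33 (adjusted p = 0.00898), the fall in H460 being the larger. For HNRNPA1 it was -0.995 ± 0.19 (adjusted p = 0.00172). Among SR proteins, the difference of RKO minus H460 was -1.22 ± 0.28 (adjusted p = 0.00509) for SRSF6 and -0.93 ± 0.22 (adjusted p = 0.00561) for SRSF1, while for SRSF7 it was -0.20 ± 0.23 (adjusted p = 0.557), which did not pass. The differences of A549 from the other lines include the weak hypoxia replicate 1 of A549.

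Other genes of the splicing pathway were read from lists. Of 33 core spliceosome proteins, 0 rose and 19 fell in RKO, 0 rose and 0 fell in A549, and 2 rose and 17 fell in H460. Over all genes tested, 18.8% rose and 15.1% fell in RKO, 2.22% rose and 0.456% fell in A549, and 24.6% rose and 27.3% fell in H460. The core proteins had a median log2 fold change of -0.68 in RKO, -0.20 in A549 and -0.59 in H460. For all genes tested it was 0.01, -0.01 and -0.04. The largest fall was that of SF3A3, a subunit of the U2 particle, in RKO (-1.10 ± 0.16, adjusted p = 5.95e-04), and that of PRPF19, a ubiquitin ligase of the active spliceosome, in H460 (-1.61 ± 0.10, adjusted p = 4.86e-08). SF3B2, another U2 protein, had the largest rise in H460 (1.01 ± 0.10, adjusted p = 2.30e-06). In this list 0 genes passed in A549 by edgeR and 2 had an unadjusted p under 0.05, both lower. Over all 14251 genes in A549, 1389 were higher and 974 lower at that level.

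Of 34 other splicing regulators tested, 1 rose and 6 fell in RKO, 0 rose and 0 fell in A549, and 8 rose and 4 fell in H460. The falls in RKO and the rises in H460 were near the shares of all genes (15.1% and 24.6%). The rises in RKO and the falls in H460 were below them (18.8% and 27.3%). The list had a median log2 fold change of -0.33 in RKO, -0.09 in A549 and 0.31 in H460. At an unadjusted p under 0.05, A549 had 2 higher and 1 lower, beside 1389 and 974 of all 14251 genes.

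Among 12 other SR kinases, phosphatases and transport factors, 0 rose and 1 fell in RKO and 2 rose and 2 fell in H460. ALYREF, an mRNA export adaptor, fell most in RKO (-1.19 ± 0.16, adjusted p = 4.04e-04) and likewise in H460 (-1.52 ± 0.09, adjusted p = 5.24e-08), and the catalytic phosphatase subunit PPP1CB rose most in H460 (0.87 ± 0.09, adjusted p = 3.17e-06). Of 10 factors of nonsense-mediated decay, SMG9 rose both in RKO (0.76 ± 0.18, adjusted p = 0.00854) and in H460 (0.82 ± 0.09, adjusted p = 5.41e-06), SMG8 fell in RKO (-0.90 ± 0.20, adjusted p = 0.00566), and the other 8 passed in neither line. In both lists the shares called in RKO and H460 were below those of all genes in each direction. In A549 0 genes of either list passed by edgeR, and 0 had an unadjusted p under 0.05.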

How the data were processed

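Poly(A)+ RNA of 12 libraries was sequenced as single-end reads. In the study's methods, the authors trimmed low-quality 3′ ends, aligned with TopHat2 to GRCh37 with the UCSC annotation, kept reads that mapped with sufficient quality, and used HTSeq to assign reads to the exons of each gene by strand (mode intersection-nonempty), after duplicates had been marked but not removed as far as stated. The submitters' processing notes give TopHat2 2.0.13, Picard 1.129 and HTSeq 0.6.1. The authors deposited raw counts for 25369 genes, which all tests used. The authors also deposited RPKM, which equal the count divided by gene length and by the library's summed count up to a constant, and these served only to compare levels between genes. There were 0 unused columns. Deposited starts count from 0, so 1 was added.

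Tests were quasi-likelihood F tests of edgeR 4.0.16 (R 4.3.3) with TMM factors, run for a line on its 4 libraries and on genes that exceeded 0.5 CPM in at least 2 of them. A gene was called at a Benjamini-Hochberg adjusted p under 0.1, over all genes tested, and a fold change over 1.5. All adjusted p-values are from edgeR. The SE is the size of the log2 fold change divided by the square root of F. A joint fit of 12 libraries and 6 groups gave the average effect, the interaction (adjusted p alone), differences between lines and normoxic comparisons. CPM values used TMM factors over all 12 libraries. The script was tested on simulated data.

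The labels do not say what a replicate number marks. Deviations of same-numbered normoxia and hypoxia libraries correlated across genes at r = 0.357 in RKO, 0.371 in A549 and 0.145 in H460, so the numbers were treated as pairs in an alternative with a replicate block. Other alternatives were RLE scaling, library size only, no filter, DESeq2 1.42.0 without independent filtering, the joint fit, no fold minimum, and leaving out each library. Members with values in every library were the 6 kinases, members called in at least 2 lines, the 3 called members that rose and the 3 that fell most in each line, and the 3 with the smallest interaction p. For each further list, the rule was to name the called genes with the largest rise and fall per line. The members and lists were chosen with earlier results of these data known. Not every gene that met the rule is reported here, and the list of other splicing regulators is given by counts and medians alone.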

Additional observations from a re-analysis of the deposited data

Results flagged for a closer look

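The hypoxia effect differed between the lines for 30 of the 42 members tested together, and 48.8% of all genes did so. For each member below the pair of lines that lay furthest apart is given as a difference of log2 fold changes from the joint edgeR fit, with no explanation. The effect in A549 minus that in H460 was -1.79 for CLK1, -1.16 for CLK2, -2.04 for CLK3 and -0.64 for SRPK2, with the higher value in H460, and none of the 4 passed in A549. The same difference was 0.80 for SRPK1, 1.12 for HNRNPA2B1, 2.10 for HNRNPAB and 1.28 for HNRNPM, with the lower value in H460, and none of these 4 passed in A549 either. The effect in RKO minus that in A549 was -1.17 for SRSF2, -1.08 for SRSF3, -0.82 for TRA2B and -0.71 for HNRNPR, with the lower value in RKO. The effect in RKO minus that in H460 was -0.995 for HNRNPA1 and -1.12 for SRSF8, with the lower value in RKO, and 1.07 for HNRNPA1L2, with the lower value in H460. The values that involve A549 include its weak hypoxia replicate 1.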

How the results depend on the processing

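With 2 replicates per group, small changes of low genes could not be resolved, most of all in A549. RLE scaling, no filter and DESeq2 moved none of the member counts by over 1.5 times. The replicate block gave 1 member lower in A549, as did the joint fit (HNRNPA1L2 in both; 2.82% of all genes were lower in that fit), and the block changed no other call among the members. Library size scaling gave 3 higher in H460. With no fold minimum the counts were 14 higher and 17 lower of 40 in H460, near the 38.0% and 39.7% of all genes, 8 higher and 21 lower of 42 for the average effect (30.1% and 26.3% of all genes), and 21, 24 and 20 of 42 for normoxic RKO against A549, RKO against H460 and A549 against H460 (72.6%, 74.0% and 65.5% of all genes). Leaving out each library in turn gave 0 to 1 higher and 0 to 4 lower in A549, 2 to 3 higher and 18 to 21 lower in RKO, 6 to 9 higher and 10 to 10 lower in H460, 2 to 2 higher and 9 to 11 lower for the average, and 22 to 35 for the interaction. Log2 estimates that changed sign when a library was left out, and that were never called, ran from -0.0050 to 0.44 for CLK2 and from -0.088 to 0.30 for SRPK2 in RKO. In A549 they ran from -0.28 to 0.14 for HNRNPA2B1, -0.45 to 0.17 for HNRNPM, -0.23 to 0.047 for SRPK1 and -0.19 to 0.13 for SRPK2. Of the other alternative log2 values of named members, 8 lost a call, 12 gained one and 531 kept their side. The cause of these shifts was not tested beyond the alternatives' own construction.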

Other observations

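The levels were also summed over each family in every library. The 6 kinases together had 574 and 623 CPM in normoxic H460 and 1637 and 1434 CPM in hypoxic H460, while the 27 hnRNP rows went from 8855 and 9329 to 7391 and 7366 CPM there and the 14 SR proteins from 3186 and 3594 to 3144 and 3033 CPM. In RKO the SR proteins went from 2983 and 3035 to 1607 and 1854 CPM and the hnRNPs from 9405 and 9249.7 to 5911 and 5875 CPM, without overlap, and the kinases from 582 and 594 to 778 and 603 CPM. In A549 the sums of kinases (364 and 342 CPM in normoxia, 347 and 422 CPM in hypoxia) and of hnRNPs (7561 and 6867 CPM, then 7767 and 6294 CPM) overlapped between conditions, and those of SR proteins (2667 and 2652 CPM, then 2453 and 2063 CPM) did not. These sums weigh abundant members most and were not tested.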
